A study of Mus musculus with 19 samples.

Results

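The cytochrome P450 genes of families 1 to 4 were described in whole kidneys of mice that lost the DNA methyltransferases Dnmt3a and Dnmt3b in the kidney tubule. Members were all genes whose symbol holds Cyp, a family number from 1 to 4, subfamily letters and a closing number. This rule found 66 genes among the 54146 gene identifiers of each file, and 19 of them averaged 1 TPM or more across the 5 RNA libraries. Genes not found under their symbol, such as Cyp1b1, Cyp2c54, Cyp4f13 and Cyp4f14, were not read. The members are therefore not a full list of these families. TPM are transcript abundances corrected for transcript length and scaled to a sum of 1000000 in each library, so levels can be compared between genes, but they keep no sequencing depth. The last member inside that limit was Cyp2d9 at a mean of 1.31 TPM, and the first outside it was Cyp1a1 at 0.996 TPM.

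The KspCre DKO group held 2 libraries of kidneys with floxed Dnmt3a and Dnmt3b (Dnmt3ab f/f) and Cre under the Ksp-cadherin promoter. The control group held 3 libraries of kidneys with the same floxed alleles and no Cre. All animals were of strain B6C3F1/J and at postnatal day 21. The Ksp-cadherin promoter is active in renal tubule epithelium and strongest in the thick ascending limb and collecting duct, and cells in which it is silent keep both genes. The other 14 of 19 samples of the series are bisulfite libraries and are not analysed here. The labels do not say whether each library is a separate animal, so p-values reflect only how far these libraries vary, which may be technical.

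P450 enzymes are haem proteins of the endoplasmic reticulum that insert an oxygen atom into small lipophilic molecules, using electrons passed on by the reductase Por. Families 1 to 3 act on drugs, toxins, steroids and arachidonic acid, and family 4 hydroxylates the ends of fatty acid chains. In the kidney they are found mainly in the proximal tubule, where Cyp2c and Cyp2j enzymes turn arachidonic acid into epoxides that act on vessels and salt transport, and Cyp4a enzymes make hydroxylated fatty acids.

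The libraries were not alike. KspCre DKO replicate 2 had 14710 genes above 0 TPM and 31.0% of its TPM in mitochondrially encoded genes, against 20510 genes and 22.1% in KspCre DKO replicate 1 and 18488 to 20075 genes and 18.2% to 23.2% in the controls. The genotype labels could not be checked from the deleted genes, with Dnmt3a at 9.98 and 14.2 TPM in KspCre DKO kidneys and at 13.2, 18.97 and 15.5 TPM in control kidneys, and Dnmt3b at 2.29 and 3.25 TPM in KspCre DKO kidneys and at 1.82, 2.86 and 1.98 TPM in control kidneys. The Dnmt3b average was thus higher in KspCre DKO kidneys, with overlap, and neither gene was called. The Y-linked gene Eif2s3y stood at 47.5 TPM in both KspCre DKO libraries and at 66.1, 74.5 and 49.7 TPM in the controls, so each library held Y-linked RNA. Ddx3y stood at 13.2 and 2.68 TPM in KspCre DKO kidneys and at 11.3, 9.4 and 8.97 TPM in control kidneys. Uty and Kdm5d, like Ddx3y, were highest in KspCre DKO replicate 1 and lowest in replicate 2. Xist was not found under its symbol, so RNA of female origin was not checked. Genes were compared with limma on log2(TPM + 1), adjusted by Benjamini-Hochberg over 13963 tested genes, and called at an adjusted p below 0.05. Log2 fold changes are KspCre DKO minus control on that scale and understate the change of low genes.

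None of the 19 tested P450 genes was called (limma), where 0.165% of all tested genes were, 0.1% as higher and 0.0645% as lower in KspCre DKO kidneys. Cyp2a5 came nearest, at 5.42 times the control average, and it was called under several other scalings. Cyp4b1 and Cyp2e1 were next by size, but their high values were those of KspCre DKO replicate 1. These 3 genes had log2 fold changes of 1 or more in size, as had 9.4% of all tested genes. The genes of highest level, of the Cyp4a, Cyp2d and Cyp2j subfamilies, had overlapping groups. At an unadjusted p below 0.05 there were 2 members, Cyp2a5 and Cyp4b1, both higher in KspCre DKO kidneys, where 10.3% of all tested genes passed, and 4.16% passed as higher. The groups did not overlap for 3 of the 19, and for 26.1% of all tested genes. The median log2 fold change of the 19 members was −0.02, against −0.14 over all tested genes, with 9 members above 0 and 10 below, where 38.3% of all tested genes were above 0.

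**Figure D1:**
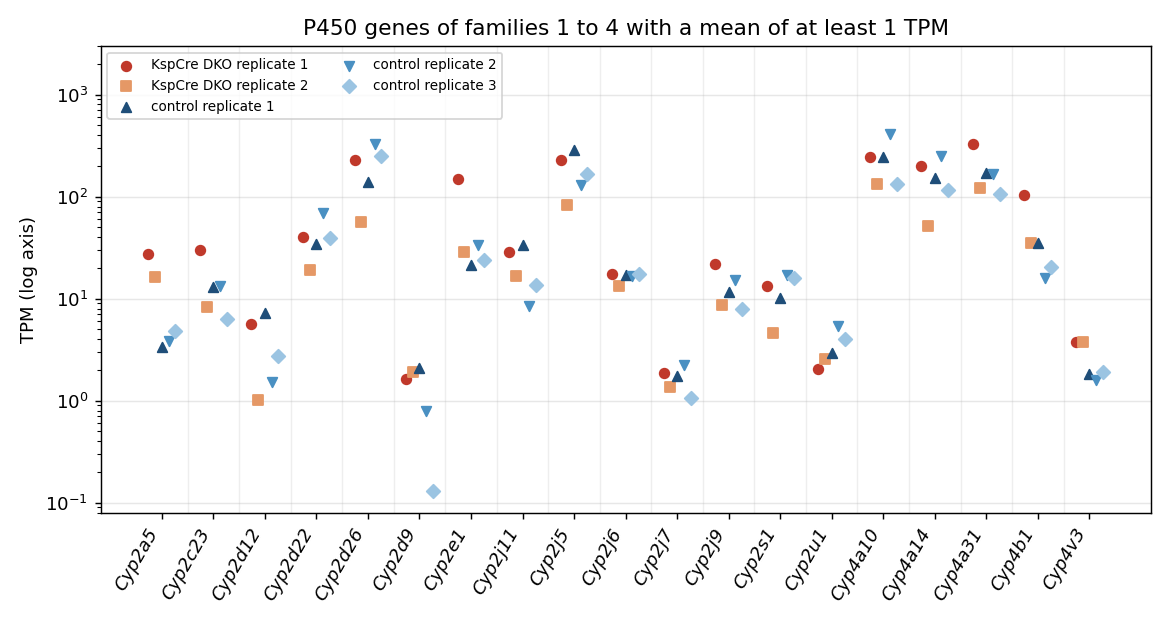
TPM of the 19 tested P450 genes in each of the 5 libraries, on a log axis, with KspCre DKO replicates left of the controls. Cyp2a5 and Cyp4v3 lie above all controls in both KspCre DKO libraries and Cyp2u1 lies below them, while the other 16 genes overlap.

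The promoters of the members with the largest log2 fold changes are shown because the enzymes deleted in these mice methylate the base pair step CG. For each gene the 250 bases before the RefSeq transcription start are printed 5′ to 3′ on the coding strand (assembly GRCm38.p6), with CG in capitals. Cyp2a4 is included as the near-identical neighbour of Cyp2a5. Cyp2a5 lies at chr7:26835089-26835338 on the plus strand, Cyp2a4 at chr7:26306942-26307191 on the plus strand, Cyp4b1 at chr4:115647722-115647971 on the minus strand and Cyp2e1 at chr7:140763569-140763818 on the plus strand.
Cyp2a5: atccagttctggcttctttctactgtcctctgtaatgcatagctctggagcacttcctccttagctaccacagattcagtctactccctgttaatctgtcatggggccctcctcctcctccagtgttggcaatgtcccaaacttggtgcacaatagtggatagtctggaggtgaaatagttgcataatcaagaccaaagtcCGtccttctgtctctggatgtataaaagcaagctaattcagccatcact
Cyp2a4: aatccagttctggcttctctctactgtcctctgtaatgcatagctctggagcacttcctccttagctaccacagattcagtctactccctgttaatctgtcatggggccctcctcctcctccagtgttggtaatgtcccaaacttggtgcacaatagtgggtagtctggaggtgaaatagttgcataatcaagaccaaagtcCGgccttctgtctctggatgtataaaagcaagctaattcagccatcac
Cyp4b1: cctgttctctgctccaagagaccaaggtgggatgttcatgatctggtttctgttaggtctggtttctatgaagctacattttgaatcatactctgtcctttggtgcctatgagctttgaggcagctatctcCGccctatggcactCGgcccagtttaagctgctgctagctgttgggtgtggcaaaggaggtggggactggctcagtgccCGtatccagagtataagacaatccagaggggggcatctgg
Cyp2e1: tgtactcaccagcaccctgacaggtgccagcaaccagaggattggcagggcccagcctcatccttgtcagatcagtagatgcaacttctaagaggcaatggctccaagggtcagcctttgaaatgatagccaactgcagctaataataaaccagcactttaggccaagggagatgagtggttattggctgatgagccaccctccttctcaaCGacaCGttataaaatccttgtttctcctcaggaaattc
The Cyp2a5 and Cyp2a4 windows were 97.6% identical in a global alignment and held 1 CG each. The Cyp4b1 window held 3 and the Cyp2e1 window 2.

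A promoter was listed for 55 of the 66 members, and for 11 of the 19 tested ones. The median was 2 CG per 250 bases over these 55 members and 6 over all 27025 genes with a listed promoter. Cyp2r1, Cyp2s1 and Cyp4v3 stood apart with 16, 15 and 17. The letters TATAAA, searched on both strands, were found in 24 of the 55 member windows (43.6%) and in 13.0% of all promoters. Those of Cyp2a5, Cyp2a4 and Cyp2e1 hold it and that of Cyp4b1 does not. The half-site AGGTCA of nuclear receptors was found in 16 member windows (29.1%) and in 13.8% of all promoters, and among the 11 tested members in Cyp2j5 alone. The core GCGTG to which the aryl hydrocarbon receptor binds was found in 9 member windows (16.4%) and in 28.2% of all promoters, with 1 in Cyp1a1. Such matches describe letters and are no evidence of binding. Methylation at these windows is not analysed here.

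The 66 genes together held 1687 and 611 TPM in KspCre DKO kidneys, against 1195, 1495 and 937 TPM in control kidneys. The highest and the lowest of the 5 sums were thus both KspCre DKO libraries. KspCre DKO replicate 1 was above KspCre DKO replicate 2 for 17 of the 19 tested members, and for 79.3% of all tested genes. It held the highest value of the 5 libraries for 8 members, and KspCre DKO replicate 2 the lowest for 8. The Cyp4a, Cyp2d and Cyp2j subfamilies together made up most of each sum, with Cyp4a at 45.9% and 49.9% in KspCre DKO kidneys and at 47.4%, 55.5% and 38.0% in control kidneys. Cyp2a made up 1.64% and 3.03% of the sum in KspCre DKO kidneys, against 0.392%, 0.290% and 0.530% in control kidneys.

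Markers of the proximal tubule, the segment where most of these genes are used, were measured beside them. Of 28 proximal tubule markers listed, 24 were found under their symbols and tested, without Slc22a6, Slc22a8, Slc22a12 and Slc3a1. Of the 24, 14 had a positive and 10 a negative log2 fold change, with a median of 0.19. Their summed level was 9849 and 4988 TPM in KspCre DKO kidneys, against 8332, 6921 and 5869 TPM in control kidneys, so KspCre DKO replicate 1 was also the highest and KspCre DKO replicate 2 the lowest here. Of the 7 tested markers of the straight end of the proximal tubule (S3), all had negative values, with a median of −1.44, no overlap between groups for 4 of them, where 15.6% of all tested genes lay lower without overlap, and sums of 553 and 379 TPM in KspCre DKO kidneys against 1311, 921 and 1248 TPM in control kidneys. None of these markers was called over all genes. In whole kidney, fewer cells of a type and less RNA per cell cannot be told apart, and the part of segment make-up in the P450 values was not tested beyond scaling to the proximal tubule markers. The 7 thick ascending limb markers summed to 703 and 380 TPM in KspCre DKO kidneys and to 1474, 1381 and 1465 TPM in control kidneys. All 7 had negative log2 fold changes, with a median of −1.34, and 6 lay lower without overlap, against the same 15.6% of all tested genes. The 8 collecting duct principal cell markers summed to 2514 and 2504 TPM in KspCre DKO kidneys and to 1009, 1066 and 1039 TPM in control kidneys, mostly from Aqp2 and Fxyd4. Of these 8, 6 lay higher without overlap, where 10.5% of all tested genes did, Hsd11b2 and Scnn1g had negative log2 fold changes, and the median was 1.02. The median log2 fold change was −0.14 for endothelial, −0.74 for fibroblast and −0.74 for macrophage markers. Of 6 tested kidney genes that are higher in male mice, 3 had positive and 3 negative log2 fold changes, with a median of −0.10. The 3 negative ones, Kap, Slc7a13 and Cyp7b1, lay below all controls, as did 15.6% of all tested genes. Slco1a1, listed with them but under the limit for testing, was at 0 TPM in both KspCre DKO libraries and at 0.89, 1.48 and 0.24 TPM in control kidneys. The list summed to 22109 and 26799 TPM in KspCre DKO kidneys and to 41254, 30224 and 34258 TPM in control kidneys. None of the genes of these lists was called.

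Cyp2a5, the coumarin 7-hydroxylase that also clears nicotine (ENSMUSG00000005547.14, chromosome 7, 26835339 to 26843264), stood at 27.1 and 16.3 TPM in KspCre DKO kidneys and at 3.36, 3.83 and 4.83 TPM in control kidneys. The lower KspCre DKO library was above the highest control by more than 3-fold, and the groups did not overlap. Such separation with KspCre DKO higher was seen in 10.5% of all tested genes. The group averages were 21.7 ± 7.64 TPM in KspCre DKO kidneys (SD, n = 2) and 4.01 ± 0.75 TPM in control kidneys (SD, n = 3), a ratio of 5.42. The log2 fold change was 2.15 ± 0.34 (SE), with a limma adjusted p of 0.0705, just short of the threshold.

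The call on Cyp2a5 turned on how libraries were scaled and on which were kept. Its limma adjusted p was 0.0305 with median-of-ratios scaling, 0.0287 with quantile normalization and 0.0454 after rescaling without mitochondrially encoded genes, settings that called 0.222%, 0.301% and 0.258% of all tested genes in that order. Dividing each library by the geometric mean of the proximal tubule markers gave a log2 fold change of 2.04 and an adjusted p of 0.0126, a setting that called 2.03% of all tested genes (284). On that ratio Cyp2a5 stood at 16.02 and 27.5 per 100 of the marker mean in KspCre DKO kidneys, against 2.73, 4.85 and 6.11 in control kidneys. Without KspCre DKO replicate 1 the value was 1.80 and the adjusted p 0.0447, where 4.04% of tested genes were called, and without KspCre DKO replicate 2 they were 2.5 and 0.126. Cyp2a5 was farther from a call with no filter (limma adjusted p = 0.356), with array weights (0.2997) and with no intensity trend (0.111). The adjusted p was 0.103, 0.224 and 0.201 without control replicate 1, 2 and 3 in that order. Over the 17 alternatives the log2 fold change ran between 1.54 and 2.5 and the adjusted p between 0.0126 and 0.356, and the log2 fold change stayed positive in each.

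Cyp2a4, a steroid 15-alpha-hydroxylase, is so alike Cyp2a5 that reads can be divided between them only by estimate. It was listed at 0.48 and 2.22 TPM in KspCre DKO kidneys and at 1.32, 0.50 and 0.14 TPM in control kidneys, under the limit for testing. The remaining members of the subfamily, Cyp2a12 and Cyp2a22, were listed at 0 in each library. The Cyp2a sum, which does not depend on the division, was 27.6 and 18.5 TPM in KspCre DKO kidneys and 4.68, 4.33 and 4.97 TPM in control kidneys. On the log2 scale the mean sums differed by 2.28, and by 1.99 or 2.57 with KspCre DKO replicate 1 or 2 left out.

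Cyp2a5 shares a stretch of chromosome 7 (25802469 to 27158564) with 12 other members, among them genes of the Cyp2b, Cyp2f, Cyp2g, Cyp2s and Cyp2t subfamilies. Only Cyp2a5 and Cyp2s1 of the 13 reached a mean of 1 TPM. Cyp2s1, which is found in epithelia outside the liver and acts on retinoids and lipid peroxides, stood at 13.2 and 4.59 TPM in KspCre DKO kidneys and at 10.1, 16.96 and 15.9 TPM in control kidneys. Its groups overlapped, and its log2 fold change had the opposite sign to that of Cyp2a5. All 5 Cyp2b genes were at or below 0.43 TPM in each library. Cyp2f2, best known from lung, was at 0.56 and 0 TPM in KspCre DKO kidneys and at 0.62, 0.31 and 1.32 TPM in control kidneys.

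Cyp2e1, the ethanol- and acetone-oxidising P450 (chromosome 7, 140763819 to 140774990), stood at 148 and 28.8 TPM in KspCre DKO kidneys and at 21.6, 33.6 and 24.2 TPM in control kidneys. KspCre DKO replicate 1 stood far above the rest, while KspCre DKO replicate 2 lay within the control range. On the log2 scale the difference was 1.3 ± 0.59 (SE; limma adjusted p = 0.505). It was 0.14 with KspCre DKO replicate 1 left out and 2.46 with replicate 2 left out, and the gene was not called in either case.

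Cyp4b1, which hydroxylates fatty acids and activates furan toxins (chromosome 4, 115624698 to 115647721), stood at 104.8 and 34.8 TPM in KspCre DKO kidneys and at 34.9, 15.98 and 20.3 TPM in control kidneys. The lower KspCre DKO library was level with control replicate 1 and above the other controls. The log2 fold change was 1.39 ± 0.50 (SE; limma adjusted p = 0.386, unadjusted p = 0.0226). It was 0.61 with KspCre DKO replicate 1 left out and 2.17 with replicate 2 left out. Divided by the proximal tubule marker mean, Cyp4b1 stood at 61.9 and 58.6 per 100 in KspCre DKO kidneys and at 28.4, 20.2 and 25.7 in control kidneys, without overlap. With that scaling its log2 fold change was 1.26 and its adjusted p 0.359. Of the other tested members, Cyp2e1 was then also above all controls, and Cyp2j5, Cyp2s1 and Cyp4a14 were below them. This made 3 of 19 members above and 3 below, where 4.15% of all tested genes lay above and 17.2% below on that scale.

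**Figure D2:**
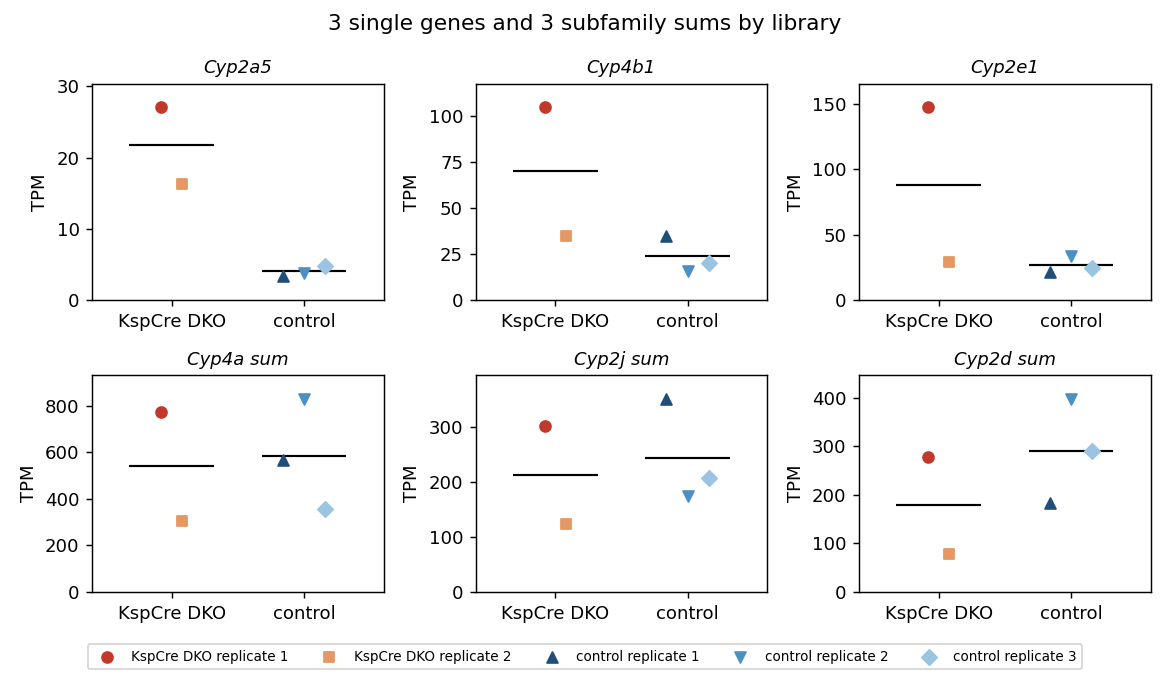
TPM of Cyp2a5, Cyp4b1 and Cyp2e1 (upper row) and summed TPM of the Cyp4a, Cyp2j and Cyp2d genes (lower row) in each library on linear axes from 0, with bars at the group means. Both KspCre DKO libraries lie above the controls for Cyp2a5, whereas KspCre DKO replicate 2 meets the control range for Cyp4b1 and Cyp2e1 and has the lowest sum in each lower panel.

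The Cyp4a genes, fatty acid omega-hydroxylases that respond to the lipid sensor PPARA, held the highest levels of all members. Cyp4a10 (chromosome 4, 115518287 to 115533649) stood at 243 and 132 TPM in KspCre DKO kidneys and at 246, 412 and 134 TPM in control kidneys. Its log2 fold change was −0.41 ± 0.47 (SE; limma adjusted p = 0.79). The values ran over a 3-fold range within the controls alone, and both KspCre DKO libraries lay below control replicates 1 and 2.

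Cyp4a14 (chromosome 4, 115486200 to 115496158), its neighbour, stood at 201 and 51.6 TPM in KspCre DKO kidneys and at 151, 250 and 117 TPM in control kidneys, which differed by −0.68 ± 0.55 on the log2 scale (SE; limma adjusted p = 0.701). Cyp4a31 (chromosome 4, 115563627 to 115579015) stood at 330 and 121 TPM in KspCre DKO kidneys and at 170, 168 and 105 TPM in control kidneys, which differed by 0.47 ± 0.43 on the log2 scale (SE; limma adjusted p = 0.73). In both genes KspCre DKO replicate 1 was well above KspCre DKO replicate 2. Each of the 3 changed sign when 1 KspCre DKO library was left out. Cyp4a10 and Cyp4a14 then took 0.03 and 0.29 without KspCre DKO replicate 2, and Cyp4a31 took −0.25 without KspCre DKO replicate 1.

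Cyp4a10, Cyp4a31 and Cyp4a32 are close copies, so how reads were divided among them is uncertain. Cyp4a32 was at or below 0.55 TPM, and Cyp4a29 was listed at 0. The Cyp4a sum was 775 and 305 TPM in KspCre DKO kidneys and 566, 830 and 357 TPM in control kidneys, with overlap. The mean log2 sums differed by −0.18, and by −0.85 or 0.49 with KspCre DKO replicate 1 or 2 left out.

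In the rest of family 4, Cyp4v3, a fatty acid hydroxylase, stood at 3.75 and 3.72 TPM in KspCre DKO kidneys and at 1.84, 1.6 and 1.92 TPM in control kidneys. Its groups did not overlap, and the KspCre DKO average of 3.73 TPM was 2.09 times the control average of 1.79 TPM, but the gene was not called (limma adjusted p = 0.512). Cyp4f15, Cyp4f18 and Cyp4x1 stayed at or below 0.77 TPM in each library, and other Cyp4f genes were not found under their symbols.

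The Cyp2j genes lie side by side on chromosome 4 (96042660 to 96664171) and encode arachidonic acid epoxygenases. Cyp2j5, the main one in mouse kidney (96627432 to 96664171), stood at 229.8 and 82.0 TPM in KspCre DKO kidneys and at 287, 130 and 167 TPM in control kidneys. The groups overlapped, with a difference of −0.42 ± 0.48 on the log2 scale (SE; limma adjusted p = 0.79), which was 0.32 without KspCre DKO replicate 2. Cyp2j11 stood at 28.4 and 16.6 TPM in KspCre DKO kidneys and at 33.6, 8.52 and 13.6 TPM in control kidneys. Cyp2j9 stood at 21.97 and 8.68 TPM in KspCre DKO kidneys and at 11.6, 15.2 and 7.89 TPM in control kidneys.

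Cyp2j6 was the steadiest member of its level, at 17.4 and 13.2 TPM in KspCre DKO kidneys and at 16.9, 16.7 and 17.3 TPM in control kidneys. Cyp2j7 lay between 1.36 and 1.88 TPM in KspCre DKO kidneys and between 1.06 and 2.23 TPM in control kidneys. A pair of low genes of the cluster separated the groups without reaching the limit for testing. With no filter on level, 4 of 43 members lay higher without overlap, as did 1785 of all 22920 genes. Cyp2j13 stood at 2.26 and 0.86 TPM in KspCre DKO kidneys and at 0.51, 0.04 and 0.07 TPM in control kidneys, and Cyp2j8 at 1.27 and 1.32 TPM in KspCre DKO kidneys and at 0.44, 0.62 and 0.05 TPM in control kidneys. The Cyp2j sum, set mostly by Cyp2j5, was 303 and 124 TPM in KspCre DKO kidneys and 352, 174 and 207 TPM in control kidneys.

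Cyp2c23, the kidney epoxygenase of the Cyp2c subfamily (chromosome 19, 44005022 to 44029256), stood at 30.1 and 8.29 TPM in KspCre DKO kidneys and at 12.9, 13.3 and 6.28 TPM in control kidneys. The groups overlapped, and the limma adjusted p was 0.73. The 12 other Cyp2c genes found lie together some way off on the same chromosome (39006940 to 40187286). They include the main drug-metabolising P450s of mouse liver, and their sum averaged 0.14 TPM in KspCre DKO kidneys and 0.01 TPM in control kidneys.

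Among the Cyp2d genes, which act on many drugs and lie on chromosome 15 (82370527 to 82794452), Cyp2d26 was by far the highest. It stood at 229.8 and 56.9 TPM in KspCre DKO kidneys and at 140, 326 and 248 TPM in control kidneys. The log2 fold change was −0.97 ± 0.57 (SE; limma adjusted p = 0.598), and it was 0.03 without KspCre DKO replicate 2. Cyp2d22 stood at 39.8 and 19.2 TPM in KspCre DKO kidneys and at 34.1, 69.4 and 39.7 TPM in control kidneys, and in both genes control replicate 2 was the highest library and KspCre DKO replicate 2 the lowest.

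Cyp2d12 and Cyp2d9 were low and uneven within groups. Cyp2d12 ran between 1.01 and 5.69 TPM in KspCre DKO kidneys and between 1.52 and 7.19 TPM in control kidneys, and Cyp2d9 between 1.62 and 1.91 TPM in KspCre DKO kidneys and between 0.13 and 2.08 TPM in control kidneys. The Cyp2d sum was 277 and 79.0 TPM in KspCre DKO kidneys and 184, 398 and 291 TPM in control kidneys. Cyp2u1, which hydroxylates long-chain fatty acids (chromosome 3), was the 1 tested member with both KspCre DKO libraries below all controls, a pattern shown by 15.6% of tested genes. It stood at 2.02 and 2.57 TPM in KspCre DKO kidneys and at 2.91, 5.36 and 4.06 TPM in control kidneys (limma adjusted p = 0.613).

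Of the 47 members under a mean of 1 TPM, 23 were listed at 0 in each library and 24 were above 0 in at least 1. Only 5 of the 47 reached 1 TPM in any library, namely Cyp1a1, Cyp2a4, Cyp2f2, Cyp2j8 and Cyp2j13. Cyp1a1, the classic target of the aryl hydrocarbon receptor, stood at 0.63 and 0.76 TPM in KspCre DKO kidneys and at 0.78, 0.60 and 2.21 TPM in control kidneys, and Cyp1a2 at 0.08 TPM or less. The 7 Cyp3a genes, the main drug oxidisers of liver and gut, summed to 0.38 and 0.94 TPM in KspCre DKO kidneys and to 0.37, 0.11 and 0.12 TPM in control kidneys. Cyp2r1, a vitamin D 25-hydroxylase, was at 0.12 and 0 TPM in KspCre DKO kidneys and at 0.57, 0.13 and 0.81 TPM in control kidneys. TPM of 0 may be a failed estimate, and KspCre DKO replicate 2 showed 24 members above 0 where the other libraries showed 28 to 41.

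Cells of liver and adrenal gland, both rich in P450s, were checked by their markers. Alb, the main hepatocyte transcript, was at 3.55 and 0.86 TPM in KspCre DKO kidneys and at 0.53, 0 and 0.38 TPM in control kidneys, and the 11 hepatocyte markers in the files summed to 40.8 and 70.8 TPM in KspCre DKO kidneys and to 47.2, 30.5 and 19.4 TPM in control kidneys, mostly from Apoc3 and Apoa2. Serpina1c was at or below 0.17 TPM throughout. Of the 7 tested hepatocyte markers none was called, with 4 positive and 3 negative log2 fold changes and a median of 0.65. Alb and Apob lay higher without overlap, where 10.5% of all tested genes did, and 1 marker lay lower, where 15.6% did. Apob stood at 3.08 and 1.54 TPM in KspCre DKO kidneys and at 1.09, 0.04 and 0.01 TPM in control kidneys. The part of such cells in the P450 values was not tested. Steroid hydroxylases of the adrenal cortex were seen chiefly in control replicate 1, where Cyp21a1 stood at 3.63 TPM and Cyp11a1 at 3.05 TPM. They were at or below 0.07 TPM in KspCre DKO kidneys and at or below 0.29 TPM in the other controls. The 8 adrenal markers in the files summed to 68.2 and 30.5 TPM in KspCre DKO kidneys and to 101, 66.4 and 77.7 TPM in control kidneys, mostly from Fdx1, which the kidney tubule also uses.

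**Figure D3:**
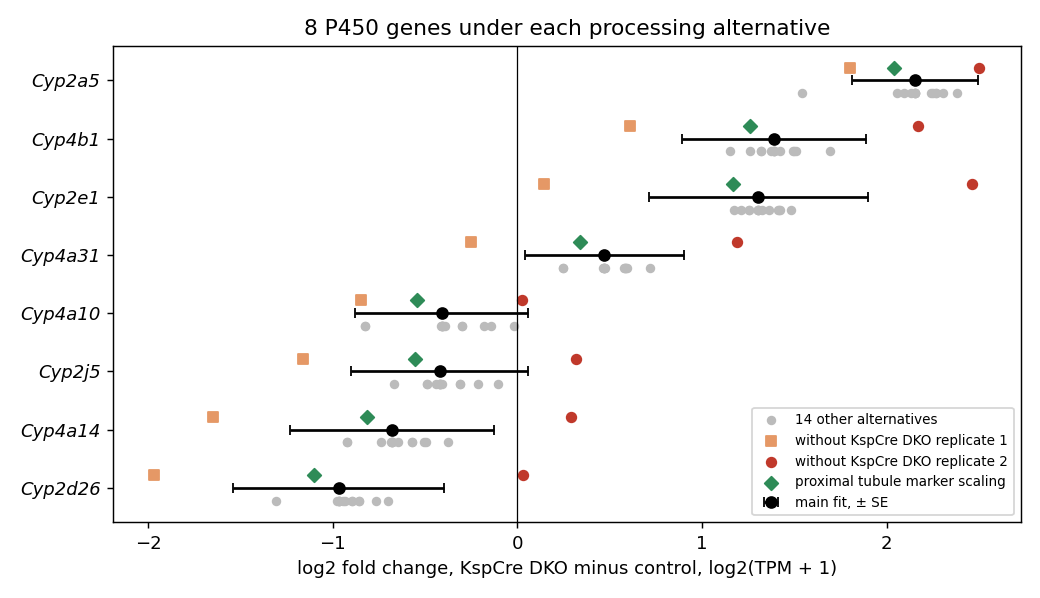
Log2 fold changes (KspCre DKO minus control) of 8 P450 genes, with black points and bars for the main value ± SE, coloured points for the values without 1 KspCre DKO library or scaled to proximal tubule markers, and grey points for the 14 other alternatives. Cyp2a5 lies between 1.54 and 2.5 throughout, whereas Cyp2e1 takes 0.14 without KspCre DKO replicate 1 and 2.46 without replicate 2. Signs turn without replicate 2 for Cyp4a10, Cyp4a14, Cyp2j5 and Cyp2d26, and without replicate 1 for Cyp4a31.

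Genes that work with P450s were read from lists of the pathway, without those not found under their symbols. Nr3c1 of the receptors and factors and Cpt1a and Angptl4 of the PPARA targets were missed in this way. Of 19 redox and haem partners, 17 were found and tested, without Cyb5a and Fech. None of the 17 was called, with 9 above 0 and 8 below and a median log2 fold change of 0.06. Por, the common electron donor, stood at 96.4 and 46.4 TPM in KspCre DKO kidneys and at 96.1, 59.2 and 61.1 TPM in control kidneys. Cyb5r1, a cytochrome b5 reductase, stood at 36.9 and 39.7 TPM in KspCre DKO kidneys and at 20.8, 17.2 and 13.4 TPM in control kidneys, which differed by 1.13 ± 0.30 on the log2 scale (SE; limma adjusted p = 0.229). Alas1, the rate-limiting enzyme of haem synthesis, stood at 188 and 80.9 TPM in KspCre DKO kidneys and at 84.7, 61.4 and 49.8 TPM in control kidneys (log2 fold change 0.94, adjusted p = 0.471).

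Of the 9 tested epoxide hydrolases and arachidonic acid enzymes none was called, with 7 above 0 and a median of 0.28. Ephx1, the microsomal epoxide hydrolase that acts on P450 products, stood at 197 and 107 TPM in KspCre DKO kidneys and at 69.7, 35.2 and 48.9 TPM in control kidneys. Its groups did not overlap, and its log2 fold change was 1.54 ± 0.38 (SE; limma adjusted p = 0.207). Ephx2, which opens the epoxides of arachidonic acid, stood at 92.2 and 48.4 TPM in KspCre DKO kidneys and at 70.4, 37.2 and 33.4 TPM in control kidneys. Ltc4s, leukotriene C4 synthase, lay lower in both KspCre DKO libraries, at 5.87 and 1.48 TPM against 13.4, 9.57 and 11.2 TPM in control kidneys (log2 fold change −1.57 ± 0.45 SE, adjusted p = 0.277).

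Of the 21 tested receptors and factors that act on P450 genes none was called, and the median was 0.03. Bcl6, a repressor known from sex-biased P450 genes of mouse liver, stood at 37.8 and 19.9 TPM in KspCre DKO kidneys and at 11.2, 5.58 and 6.74 TPM in control kidneys (log2 fold change 1.74 ± 0.40 SE, adjusted p = 0.178). Ppargc1a, a coactivator of PPARA, stood at 9.77 and 3.91 TPM in KspCre DKO kidneys and at 8.51, 15.3 and 14.04 TPM in control kidneys. The 20 tested PPARA targets outside the P450s had a median of −0.35, with 14 below 0, 6 above and none called. Acot1, an acyl-CoA thioesterase, stood at 95.5 and 31.7 TPM in KspCre DKO kidneys and at 121, 106 and 110 TPM in control kidneys, and Hadhb of mitochondrial fatty acid oxidation at 101 and 30.1 TPM in KspCre DKO kidneys and at 109, 90.3 and 135 TPM in control kidneys.

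Of 6 aryl hydrocarbon receptor targets 3 were tested and none was called. Nqo1, a quinone reductase, stood at 55.7 and 53.9 TPM in KspCre DKO kidneys and at 53.5, 29.0 and 38.4 TPM in control kidneys. Ugt1a6a, which shares exons with its neighbours, was at 7.14 and 0 TPM in KspCre DKO kidneys and at 7.69, 4.13 and 8.41 TPM in control kidneys. The other P450 families act in vitamin D, sterol, bile acid and retinoid metabolism, and of their 10 tested genes none was called, with a median of −0.15. Cyp7b1, an oxysterol hydroxylase, stood at 3.01 and 1.41 TPM in KspCre DKO kidneys and at 3.02, 3.30 and 3.25 TPM in control kidneys. Ptgis, prostacyclin synthase, stood at 1.74 and 1.21 TPM in KspCre DKO kidneys and at 3.23, 1.51 and 3.17 TPM in control kidneys.

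**Figure D4:**
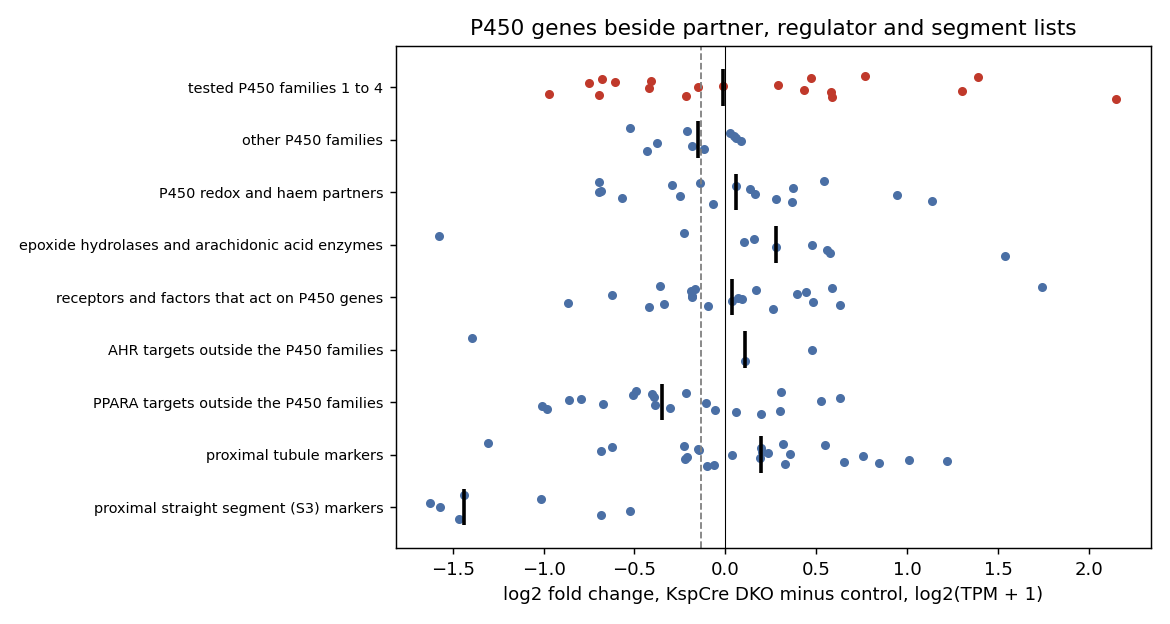
Log2 fold changes (KspCre DKO minus control) of the 19 tested P450 genes of families 1 to 4 and of the tested genes of 8 other lists, 1 point a gene, with black bars at list medians and a dashed line at the median of all tested genes (−0.14). The P450 genes spread on both sides of their median of −0.02, with Cyp2a5 at 2.15 farthest out, while the 7 S3 markers all lie below 0.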

How the data were processed

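Per the labels' protocols, polyadenylated RNA of whole kidneys was made into TruSeq libraries. STAR 2.2.1, RSEM 1.3.1 and the build mm10 are listed in the submitters' processing notes. The authors deposited TPM per gene, 1 file a library, and neither the annotation release nor the strand setting is given in the sources used here. Depth cannot be read from TPM, so no counting interval was computed, and close gene copies share reads by estimate.

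Symbols from a gene name table matched 52480 of 54146 identifiers (96.9%). Positions and promoters come from RefSeq (GRCm38.p6). Symbols ending in a letter, such as Cyp4a12a, and pseudogenes are no members. Groups came from the titles. A two-sided limma test (version 3.58.1, R 4.3.3) with trended empirical Bayes variances was run on log2(TPM + 1) of the 13963 genes averaging 1 TPM or more, and was tested on simulated data first. An exact permutation of 3 against 2 libraries cannot give a p below 0.1.

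Each library's value is given for members with a mean of at least 10 TPM, an unadjusted p below 0.05 or a log2 fold change of 1 or more in size, and the fold change for the last 2 groups and the 6 of highest mean. In each list the genes of smallest p were named, and Por and Ephx2 were chosen after their values were seen, as were Cyp4v3, Cyp2u1 and the low members. The members and lists were chosen with earlier results of these data known. Alternatives were other pseudocounts (0.1 and 5), a filter at 5 TPM or none, 3 rescalings, other variance models and weights, the replicate block, each library left out and scaling to proximal tubule markers.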

Additional observations from a re-analysis of the deposited data

How the results depend on the processing

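Cyp2a5 was the 1 member called under any alternative run: the count of called members, 0 as reported, was 1 with median-of-ratios scaling, with quantile normalization, without mitochondrially encoded genes and with proximal tubule scaling, and 0 to 1 with each library left out. Of all tested genes 23 were called, against 14 and 39 with pseudocounts of 0.1 and 5, 4 with no filter, 31 with median-of-ratios scaling, 42 with quantile normalization, 284 with proximal tubule scaling, 36 without mitochondrially encoded genes, 9 with no intensity trend, 5 with array weights and 6 to 560 with each library left out. With the replicate block 75 were called and the adjusted p of Cyp2a5 was 0.0501, with no member called. The labels do not say whether libraries of the same number belong together. Their deviations from group means correlated at 0.0926 and 0.0281. With 2 KspCre DKO libraries the deviations of 1 mirror those of the other, so these values cannot tell whether the numbers pair libraries. Fits with 1 KspCre DKO library take it to vary like the controls. Members wholly above the controls numbered 2, and 4 with no filter, with median-of-ratios scaling and with quantile normalization. They numbered 1 at a mean of at least 5 TPM and 2 to 8 with each library left out. Of all tested genes, 1473 of 13963 lay wholly above, against 1785 of 22920 with no filter. The counts were 2046 and 2041 with median-of-ratios scaling and quantile normalization, and 952 of 9843 at a mean of at least 5 TPM. The 8 members came without KspCre DKO replicate 2, where 5599 of 14049 genes lay wholly above. Members wholly below numbered 1, against 2 with no filter, 3 with proximal tubule scaling and 1 to 9 with each library left out. They numbered 0 at a mean of at least 5 TPM, with median-of-ratios scaling, with quantile normalization and without mitochondrially encoded genes. In these settings, in that order, 1614 of 9843 and 2360, 2309 and 1818 of 13963 genes lay wholly below. Of all tested genes, 2177 of 13963 did so as reported, 2906 of 22920 with no filter and 2407 of 13963 with proximal tubule scaling. The 9 members came without KspCre DKO replicate 1, where 8000 of 13849 genes lay wholly below. The counts with proximal tubule scaling were chosen after seeing the data. Of the 19 tested members, 7 turned sign without KspCre DKO replicate 2 and 3 without replicate 1. Of the genes followed through each setting, 6 turned, and with each library left out they ran from −1.97 to 0.030 for Cyp2d26, −1.16 to 0.32 for Cyp2j5, −0.85 to 0.025 for Cyp4a10, −1.65 to 0.29 for Cyp4a14, −0.25 to 1.19 for Cyp4a31 and −2.90 to 0.12 for Ugt1a6a. The cause was not tested. With each library left out, log2 differences of sums were 1.99 to 2.57 for Cyp2a, −0.31 to 1.57 for Cyp2c, −1.81 to −0.0017 for Cyp2d and −0.96 to 0.51 for all members. The median over all genes, −0.14, was −0.02 with quantile normalization, −0.26 with proximal tubule scaling, and −0.39 and 0.13 without KspCre DKO replicate 1 and 2. The number of libraries limits precision.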

Other observations

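Within the Cyp4 cluster of chromosome 4, Cyp4b1 was set against the Cyp4a genes in each library. Cyp4b1 stood at 13.5 and 11.4 TPM per 100 TPM of summed Cyp4a in KspCre DKO kidneys, against 6.17, 1.92 and 5.71 in control kidneys. The groups did not overlap, and how often ratios of other genes separate the groups was not counted. Cyp4a31 stood at 1.36 and 0.916 TPM per TPM of its close copy Cyp4a10 in KspCre DKO kidneys, against 0.691, 0.407 and 0.784 in control kidneys, and how reads were divided between these copies was not tested. Summed Cyp4a per summed Cyp2j was 2.56 and 2.46 in KspCre DKO kidneys, against 1.61, 4.78 and 1.72 in control kidneys, with overlap. Cyp2e1 per Cyp2d26 was 0.643 and 0.507 in KspCre DKO kidneys, against 0.154, 0.103 and 0.0973 in control kidneys, again without overlap. These 4 ratios were chosen after the values were seen, so no test is given.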
